A study of Homo sapiens with 23 samples.

Results

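Chromatin loops of 20 to 50 kb were described in 2 loop lists made with T47D, a human breast cancer cell line in which the progesterone receptor is expressed. A loop was a member when the starts of its 2 bins of 5 kb lay at least 20000 bp and less than 50000 bp apart, so the spans ran in steps of 5 kb from 20 to 45 kb. Of 7075 loops in the library labelled T0, 360 were members, or 5.09% (exact 95% interval 4.59 to 5.63). Of 9591 loops in the library labelled T30, 3024 were members, or 31.5% (30.6 to 32.5), which makes 3384 of 16666 loops in all. Both libraries come from HiChIP for the progesterone receptor, per the labels, in cells held in medium without phenol red and then without serum. T0 names no agent in its title, and the T30 title carries PR5020, where R5020 is a synthetic progestin of the treatment protocol. Neither a time unit nor a dose is given for them in the labels. Each condition is 1 library, so no difference between T0 and T30 has a replicate check, no p-value was computed, and intervals cover counting error only. Loops can share ends, which may make these intervals too narrow. How deeply each library was sequenced is unknown.

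The progesterone receptor is a nuclear hormone receptor. When it binds a progestin it binds DNA at palindromic response elements and recruits coregulators, in breast cells often at open chromatin marked by pioneer factors such as FOXA1. HiChIP ligates pieces of DNA that touch in the nucleus and pulls the products down with an antibody, so a listed loop reflects contact and enrichment together. At the distances described here a loop can lie within a single gene, join a gene to a nearby element, or join neighbouring genes.

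Promoters at these loops are shown first, as the 250 bases before a start site that lies in a loop's bin. The first 3 belong to loops listed with the same bins in both libraries, with 61 contacts in T0 and 35 in T30 at SCRN2, 55 and 40 at TNK2, and 60 and 24 at VWA5B2. TNK2 encodes a non-receptor tyrosine kinase. Sequences and positions are from RefSeq, GRCh38.p14, and are written 5′ to 3′ on the gene's strand.
SCRN2, chr17:47841274-47841523, minus strand: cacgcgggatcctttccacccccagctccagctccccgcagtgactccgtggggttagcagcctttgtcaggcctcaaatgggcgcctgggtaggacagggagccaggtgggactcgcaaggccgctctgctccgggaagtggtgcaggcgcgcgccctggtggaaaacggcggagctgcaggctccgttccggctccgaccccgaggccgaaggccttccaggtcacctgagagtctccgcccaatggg
TNK2, chr3:195894737-195894986, minus strand: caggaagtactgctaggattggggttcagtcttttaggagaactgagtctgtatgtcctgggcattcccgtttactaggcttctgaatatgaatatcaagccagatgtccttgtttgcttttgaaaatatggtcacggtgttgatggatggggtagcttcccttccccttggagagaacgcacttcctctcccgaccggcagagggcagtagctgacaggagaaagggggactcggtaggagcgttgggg
VWA5B2, chr3:184229335-184229584, plus strand: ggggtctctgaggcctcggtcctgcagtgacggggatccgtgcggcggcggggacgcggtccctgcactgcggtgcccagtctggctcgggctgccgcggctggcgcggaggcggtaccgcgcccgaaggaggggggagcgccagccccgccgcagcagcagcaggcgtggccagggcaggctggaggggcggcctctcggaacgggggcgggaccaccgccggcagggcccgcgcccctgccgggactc

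The next 4 are the promoters at short loops that hold the letters of a palindromic progesterone response element, GNACANNNTGTNC, in capitals. This motif is its own reverse complement. The loop at ADAM8, a membrane metalloproteinase, was listed in T0 with 15 contacts. The loops at TXNIP (23 contacts), a thioredoxin inhibitor, at EEF2K (16), the elongation factor 2 kinase, and at MAP3K6 (14), a kinase of stress signalling, were listed in T30.
ADAM8, chr10:133276869-133277118, minus strand: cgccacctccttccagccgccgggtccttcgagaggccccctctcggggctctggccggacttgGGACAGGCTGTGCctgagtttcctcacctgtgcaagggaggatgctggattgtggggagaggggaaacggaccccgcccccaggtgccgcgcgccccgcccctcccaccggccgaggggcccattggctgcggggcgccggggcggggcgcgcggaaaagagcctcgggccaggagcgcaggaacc
TXNIP, chr1:145996580-145996829, minus strand: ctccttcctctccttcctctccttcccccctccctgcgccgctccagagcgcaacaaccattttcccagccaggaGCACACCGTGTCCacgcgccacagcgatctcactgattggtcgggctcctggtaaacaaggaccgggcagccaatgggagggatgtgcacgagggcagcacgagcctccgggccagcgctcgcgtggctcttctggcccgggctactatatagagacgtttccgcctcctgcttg
EEF2K, chr16:22206028-22206277, plus strand: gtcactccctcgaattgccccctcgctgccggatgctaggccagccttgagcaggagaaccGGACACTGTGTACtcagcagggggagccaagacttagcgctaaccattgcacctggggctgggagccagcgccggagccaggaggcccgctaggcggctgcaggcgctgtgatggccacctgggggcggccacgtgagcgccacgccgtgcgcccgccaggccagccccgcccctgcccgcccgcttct
MAP3K6, chr1:27366962-27367211, minus strand: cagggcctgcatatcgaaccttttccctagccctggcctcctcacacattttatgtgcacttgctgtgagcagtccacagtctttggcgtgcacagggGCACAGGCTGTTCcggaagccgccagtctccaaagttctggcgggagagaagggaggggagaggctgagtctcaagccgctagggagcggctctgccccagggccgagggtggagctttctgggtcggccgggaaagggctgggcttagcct

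Few promoters at short loops held these letters. The motif was in 1 of 246 promoters at T0 short loops (0.407%, 0.0103 to 2.24) and in 3 of 851 at T30 short loops (0.353%, 0.0728 to 1.03). Among all 22131 promoters of the same length it was in 0.253%. One arm of the element, TGTTCT, read on both strands (AGAACA on the other) and counted also within a full element, was in 9.35% at T0 short loops, in 6.35% at T30 short loops and in 9.83% of all. The forkhead letters TGTTTAC (on the other strand, GTAAACA) were in 1.63%, 1.65% and 2.45%. The GATA letters AGATAA (on the other strand, TTATCT) were in 6.10%, 4.47% and 7.09%. None of these shares was higher at short loops beyond its counting interval. In T30 the intervals for TGTTCT (4.80 to 8.20) and for the GATA letters (3.18 to 6.08) lay below the share in all promoters. Base composition was not compared, and these windows hold promoters alone, not the rest of a bin.

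Hairpins of 1562 miRNAs were also placed on the loops. In T0, whose short loops used 679 bins, 8 lay in a bin at a loop's end and 21 between the ends of a loop. In T30, whose short loops used 5248 bins, these numbers were 52 and 90. The numbers are not scaled to the length of the lists and cannot be read as a gain at miRNAs. The mature forms of 5 miRNAs are shown with the seed, bases 2 to 8, in capitals, because their loops were among those with most contacts, were listed in both libraries, or lay at a miRNA of known role in breast cells.
hsa-miR-21-5p: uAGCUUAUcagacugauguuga
hsa-miR-10a-5p: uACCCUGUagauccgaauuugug
hsa-miR-148b-3p: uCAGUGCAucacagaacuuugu
hsa-miR-145-5p: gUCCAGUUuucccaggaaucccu
hsa-miR-6829-5p: uGGGCUGCugagaaggggca
No seed is shared among these 5. MIR21, the gene of an abundant miRNA in breast cancer, lay between the ends of a T30 loop of 53 contacts that joined VMP1 and TUBD1, and between the ends of no short T0 loop. MIR10A, within the HOXB cluster, lay between the ends of a loop in both libraries, with 28 contacts in T0 and 14 in T30. MIR6829, within TNK2, lay between the ends of the TNK2 loop shown above. MIR148B lay between the ends of a T0 loop of 40 contacts and MIR145 at the end of a T0 loop of 25 contacts, and no short T30 loop was listed at either.

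Short loops were few at every step of span in T0 and fell steadily in number with span in T30. T0 listed 51 loops at 20 kb, 48 at 25 kb, 65 at 30 kb, 58 at 35 kb, 71 at 40 kb and 67 at 45 kb. T30 listed 731, 630, 504, 417, 380 and 362 at the same steps. Across 20 to 50 kb, T30 thus listed 8.40 loops for each T0 loop (exact interval 7.53 to 9.40), against 1.07 (1.03 to 1.11) at 50 kb or more. The border steps differed in kind. Just below the range, at 15 kb, T0 listed 102 loops and T30 listed 0, and at 50 kb T0 listed 74 and T30 333. T0 held 574 loops under 20 kb in all and T30 none, so the lists do not share a lower limit. The settings of the loop calls are unknown here and may have differed between the libraries, and the ratio of 8.40 cannot be told apart from such a difference. With loops under 20 kb left out of the totals, the T0 share was 5.54%.

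**Figure D1:**
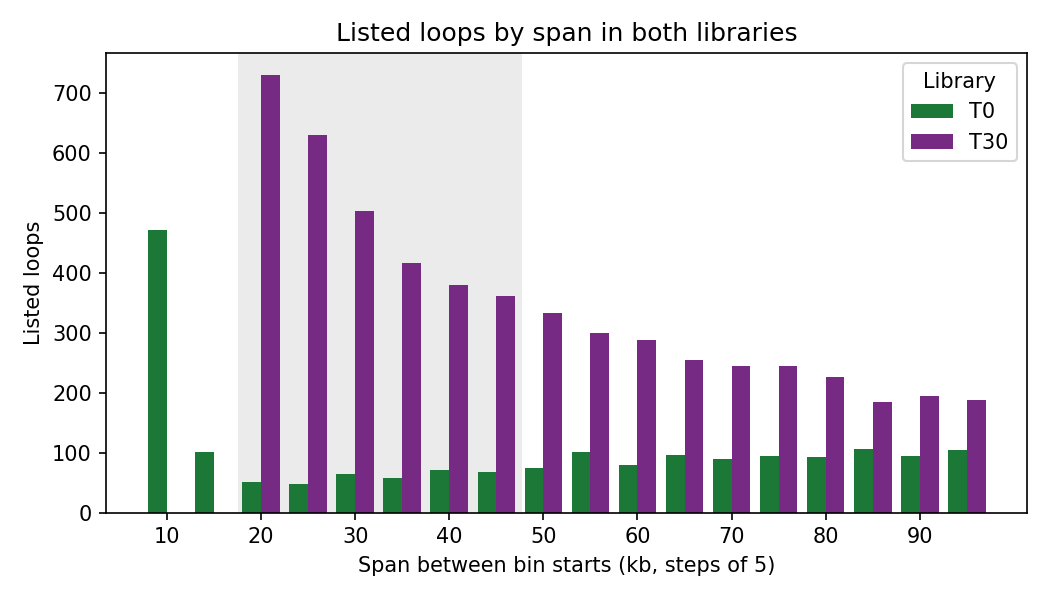
Number of listed loops (vertical axis) at each span between bin starts (horizontal axis, kb) in T0 (green) and T30 (purple), with the range of 20 to 50 kb shaded. T30 falls from 731 loops at 20 kb to 362 at 45 kb, T0 stays between 48 and 71, and only T0 has bars below 20 kb.

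T0's short loops held more contacts each. A contact is a read pair that joins 2 bins, not scaled to depth. The T0 median was 25 (quartiles 22 to 32, range 12 to 85) and the T30 median was 17 (14 to 20, range 9 to 89). The T0 median was 34 at 20 kb and 24 at 45 kb, the T30 median 20 and 14, and T0 was higher at each of the 6 steps. The lowest count listed was also higher in T0, with 17 against 9 at 20 kb and 14 against 9 at 45 kb. Short loops held 7.90% of the contacts of all T0 loops (10073 of 127457) and 40.2% of those of T30 (54500 of 135538). In the contacts merged into clusters the libraries were close: 21.4% of short T0 loops and 22.0% of short T30 loops stood for more than 1 bin pair.

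**Figure D2:**
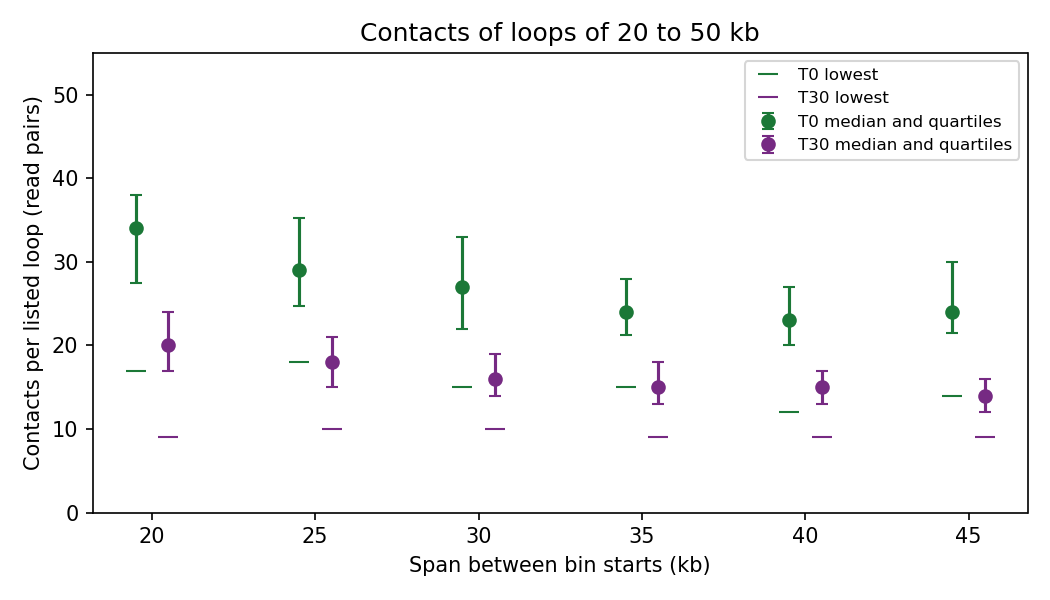
Contacts per loop (vertical axis, read pairs) by span (horizontal axis, kb), as the median with quartiles (points and bars) and the lowest listed count (dashes) in T0 (green) and T30 (purple). The T0 medians, 23 to 34, lie above the T30 medians, 14 to 20, and so do the lowest counts.

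The deposited p-values were not alike at equal contacts. At 30 kb and 23 contacts, for example, the median p in the authors' files was 7.27e-05 over 8 T0 loops and 1.87e-08 over 15 T30 loops. Over 115 combinations of span and contact count present in both lists, the T0 median p was the larger in 115, by a median of 4.39 on the log10 scale. In 93 of them the p-values of both lists did not overlap. The largest p listed for a short loop was 0.000232 in T0 and 2.84e-05 in T30. Holding T30 to the lowest T0 contacts at each span left 5.60 T30 loops for each T0 loop (5.00 to 6.28). Contacts are not scaled to depth, so an equal count is not an equal threshold. The part of thresholds in the difference in loop number was not tested. Holding both lists to the same largest p gave 16.3 (14.0 to 19.0). This limit on p removed no short T30 loop and cut T0 from 360 to 186, so it could only raise the ratio. The contact floor cut T30 alone and could only lower the ratio. The size of the ratio therefore depended on the threshold used.

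Genes at the ends were read from the protein-coding genes that overlap each bin, and loops on chromosomes 1 to 22 and X were used (all 360 of T0 and 3020 of T30). Both ends lay in a single gene for 95 T0 loops, 26.4% (21.9 to 31.3), and for 1116 T30 loops, 37.0% (35.2 to 38.7). Ends in 2 different genes were seen for 94 T0 loops, 26.1% (21.6 to 31.0), and 479 T30 loops, 15.9% (14.6 to 17.2). A gene at 1 end alone was seen for 35% and 24.9%, and no gene at either end for 12.5% and 22.3%. The share between genes was thus higher in T0, and the shares within a gene and with no gene were higher in T30, which listed more loops of each class. Among all possible bin pairs of the same spans on the same chromosomes, the shares in T0's mix were 30.01% in a single gene, 10.1% in different genes, 17.47% with 1 gene and 42.4% with none. In T30's mix they were 31.6%, 7.36%, 15.1% and 45.9%. Short loops of both libraries therefore had fewer ends without a gene than these pairs, and over the whole range the share inside a gene lay above them in T30 and below them in T0, within the T0 interval. The gap between the libraries narrowed with genes widened by 10 kb, to 47.2% in T0 (42.0 to 52.5) and 51.8% in T30 (50.0 to 53.6).

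**Figure D3:**
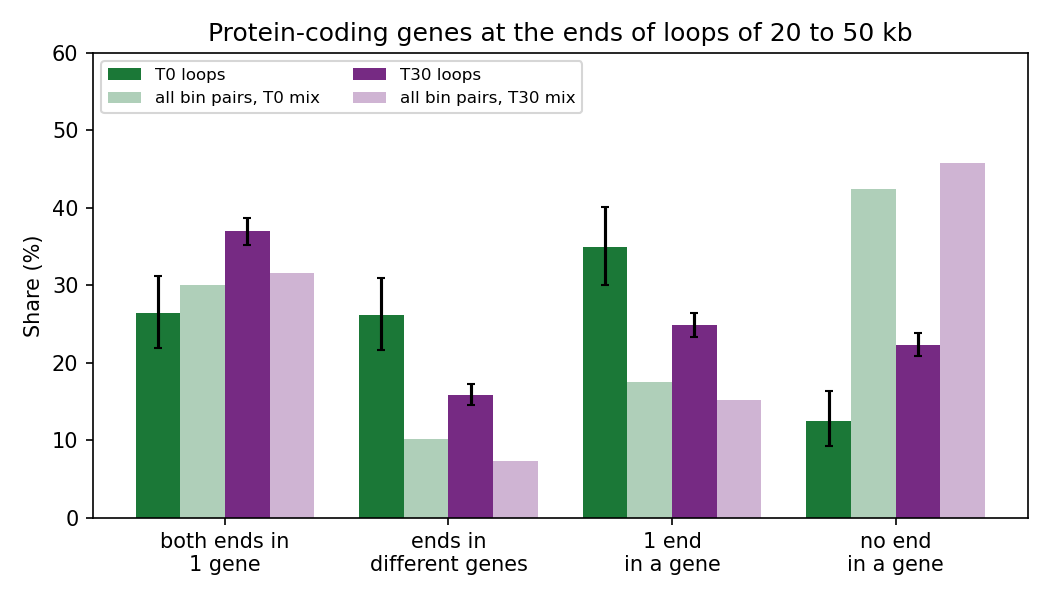
Share of loops of 20 to 50 kb (vertical axis, %) by the protein-coding genes at their ends, for T0 (green) and T30 (purple) with exact 95% intervals, beside all bin pairs of the same spans and chromosomes (pale). Loops inside a gene make up 26.4% in T0 and 37.0% in T30, and loops with no gene 12.5% and 22.3%, against 42.4% and 45.9% of all bin pairs.

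The share inside a gene fell with span in both libraries. T0 had 39.2% at 20 kb and 14.9% at 45 kb, and T30 had 45.8% and 23.5%. All bin pairs, here over all chromosomes and not weighted to each library's mix, went from 34.3% to 26.7%. T0 lay above all bin pairs at 20, 25, 30 and 35 kb (39.2% against 34.3%, 35.4% against 32.4%, 32.3% against 30.8% and 32.8% against 29.3%), each within its interval. At 40 and 45 kb T0 lay below them beyond its interval (11.3% against 28.0% and 14.9% against 26.7%). T30 lay above them beyond its interval at 20, 25 and 30 kb. Within its interval, T30 lay above them at 35 and 40 kb and below them at 45 kb. At 50 to 100 kb the share inside a gene was 14.4% in T0 and 21.9% in T30. Contacts did not separate the classes: class medians were 23 to 28 in T0 and 16 to 17 in T30.

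Loops inside a gene fell in 85 genes in T0 and 785 in T30, and 43 genes were hosts in both, 50.6% of the T0 hosts and 5.48% of the T30 hosts. A background of 0.426% of 19970 protein-coding genes hosted a short loop in T0 and 3.93% in T30. Host genes had a median length of 52.7 kb in T0 and 99.1 kb in T30, against 58.5 kb for all 10990 genes of 20 kb or more. Most hosts held 1 loop, 75 of 85 in T0 and 557 of 785 in T30. Genes with 5 or more loops inside numbered 1 in T0 and 16 in T30. At q below 0.01, differences between T30 and T0 in loops inside fell from 11 to 7 at KCNMA1, from 7 to 3 at VAV2, from 6 to 3 at MAD1L1 and from 6 to 2 at EHMT1. Of the 742 genes that hosted a short loop in T30 alone, 132 (17.8%) held a T0 loop of another span.

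GSE1, which encodes a subunit of a histone deacetylase corepressor complex, led both lists. It lies on chromosome 16 (85169512 to 85676200, hg38). T0 listed 5 short loops inside it, with 34 to 50 contacts (median 38), and T30 listed 31, with 15 to 89 (median 31). Both libraries listed short loops in the gene, so the difference at short spans lies in their number and in the reach of their bins: those of T0 ran from 85415001 to 85610000 and those of T30 from 85190001 to 85660000. In T0, 4 of the 5 had an overlapping loop in T30, and 13 of the 31 in T30 had one in T0. Identical bins were listed for 1 loop. Loops of other spans inside GSE1 numbered 45 in T0 and 108 in T30. KCNMA1, a potassium channel gene, had 0 short loops inside in T0 and 11 in T30, with 13 to 48 contacts, and the T0 list held 5 loops of other spans there.

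Of all 785 T30 hosts, 742 had no short loop inside in T0. The part of gene length in the number of loops was not tested. The other leading hosts of T30, ranked by their number of T30 loops, also had no short loop inside in T0. These were ANKRD11, a chromatin regulator (8 loops, 179 contacts in all), and VAV2, a guanine nucleotide exchange factor (7 loops, 134 contacts). ABCC5, an efflux transporter, had 6 loops with 191 contacts, of which the first had 64. BMPER, a BMP-binding regulator, had 6 loops with 167 contacts. MAD1L1, of the spindle checkpoint, ST6GAL1, a sialyltransferase, RXRA, a nuclear receptor partner, and EHMT1, a histone methyltransferase, had 6 each, with 131, 130, 116 and 90 contacts. The 6 loops of LOC128462377 lie within ANKRD11 and are not apart from it. PTPRJ, a receptor phosphatase, had 5 with 133 contacts. Loops of other spans were listed in T0 at ANKRD11 (2), VAV2 (2), ABCC5 (2) and ST6GAL1 (1), and 0 at BMPER, MAD1L1, RXRA, EHMT1 and PTPRJ.

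Beside GSE1, T0 hosts held at most 2 short loops. DRC9 (93 contacts in T0, 55 in T30), PAK2, a p21-activated kinase (84 and 32), DOP1B (49 and 50), ABCC3, an efflux transporter (47 and 39), and ZMYND8, a chromatin reader (39 and 49), held 2 loops per library. CUEDC1 held 2 in T0 with 49 contacts and 4 in T30 with 239. STX3, a syntaxin (55 contacts), and LRRC37A (54) held 2 in T0 and 0 in T30. TNK2 and LMNA, the lamin A gene, held 1 in each, with 55 and 40 contacts at TNK2 and 50 and 23 at LMNA. At CUEDC1 none of the loops inside the gene had identical bins in both libraries. The 2 of T0 and 3 of the 4 of T30 had an overlapping loop in the other list. T0 joined 57895001 to 57925001 (23 contacts) and 57925001 to 57950001 (26), and T30 joined 57900001 to 57925001 (80), 57900001 to 57945001 (82), 57925001 to 57945001 (42) and 57875001 to 57900001 (35).

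Within host genes, T0 loops met the gene's borders more often. The bins of 51 of 95 T0 loops held an end of the host gene, 53.7% (43.2 to 64.0), and those of 267 of 1116 T30 loops did, 23.9% (21.4 to 26.5). All bin pairs inside genes gave 9.43% at T0's spans and 9.59% at T30's. This background counts every bin pair of every gene, so long genes weigh most in it. It is not matched to the length of the hosts, and a gap to it cannot be read as a preference for borders. Hosts were also shorter in T0, as given above, and the part of length in this difference was not tested. In hosts under 100 kb the shares were 65.3% of 75 loops in T0 (53.5 to 76.0) and 42.8% of 493 in T30 (38.4 to 47.3). No background was computed for genes of this length.

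Loops between different genes joined 143 gene pairs in T0 and 611 in T30, with 38 pairs in both, 26.6% of those of T0 and 6.22% of those of T30. In T0 the first was the loop from the bin that holds the ends of GSE1 and GINS2, a replication factor gene, to C16orf74 (85 contacts). T30 listed 42 contacts from the next bin, in GINS2, to the same C16orf74 bin. RAPGEF3, an exchange factor activated by cyclic AMP, was joined to SLC48A1, a haem transporter, in T0 (63 contacts), and NEMP1 to STAT6, a cytokine-signalling transcription factor (52). The pair of NDUFAF6, a mitochondrial assembly factor, and PLEKHF2 led the T30 list with 59 contacts and had 48 in T0. VMP1 and TUBD1 had 53 in T30, KRT37 and KRT38, hair keratins, 39, and MAFK, a small Maf factor, and TMEM184A 35, with no matching T0 loop. CDC6, a replication licensing factor, and RARA, a retinoic acid receptor, were joined in T0 (38 contacts) with no matching T30 loop. A gene lay wholly between the ends of 21.9% of T0 loops (17.8 to 26.6) and 10.5% of T30 loops (9.46 to 11.7). These shares are not matched for span or for gene density, which had a median of 11 genes in T0 and 7 in T30. No background was computed for them.

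The strongest loops differed between the lists. After the C16orf74 loop, T0's first were a loop with no protein-coding gene at either end on chromosome 12 from 53700001 to 53740001 (73 contacts in T0, 27 in T30), then RAPGEF3 to SLC48A1 and a loop from the bin of SCRN2 and SP6 (61). CSRP1, a LIM domain protein gene, had 59 in T0 and no matching loop in T30. T30's first lay inside GSE1 (89), CUEDC1 (82 and 80), MYOF (67), a membrane repair protein gene, ABCC5 (64), GSE1 (62) and BMPER (59), beside a loop of 59 on chromosome 10 with no protein-coding gene at its ends. Matching T0 loops were listed for the CUEDC1 pair and for the second GSE1 loop, and none for the first GSE1 loop, MYOF, ABCC5 or BMPER.

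Chromosomes contributed unequally, and not alike. Chromosomes 17, 12, 1 and 16 held 48.3% of the short T0 loops, and chromosomes 3, 17, 9 and 1 held 37.3% of those of T30. Chromosome 17 was the densest in both, with 0.805 per Mb in T0 against 3.48 in T30. The number of T30 loops per T0 loop was 56 on chromosome 2 and 39.5 on chromosome 4, which had 1 and 2 T0 loops. It was 35.8 on chromosome 8 (6 T0 loops, interval 16.2 to 98.7), 23.3 on chromosome 3 (13.9 to 42.0) and 22.6 on chromosome 9 (12.7 to 44.3). The lowest were 4.48 on chromosome 19 (2.77 to 7.57), 4.33 on chromosome 17 (3.31 to 5.73) and 2.98 on chromosome 12 (2.15 to 4.19). Chromosome 18 had 0 short loops in T0 and 10 in T30. T0 had few short loops per chromosome, 15 or fewer on chromosomes 3, 8 and 9.

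The share of short loops among loops of 20 kb or more went with gene density in T0. It was 21.95% on chromosome 22 (9 short loops), 17.5% on chromosome 19 and 11.3% on chromosome 17, and 0.893% on chromosome 2. In T30 it ran from 23.9% on chromosome 13 to 48.2% on chromosome 22. Across 23 chromosomes the Spearman correlation with protein-coding genes per Mb was 0.79 in T0 and 0.11 in T30 (Pearson 0.70 and 0.32). These are descriptions of 1 library each, and the points share their library's threshold.

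**Figure D4:**
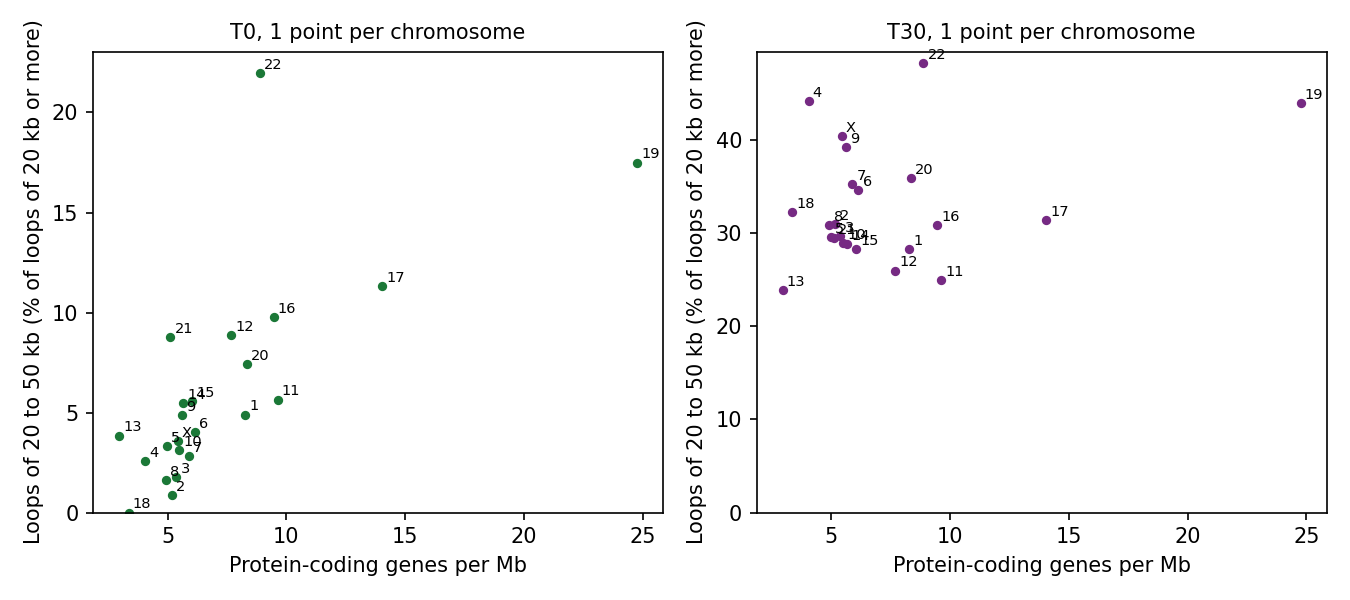
Share of loops of 20 to 50 kb among loops of 20 kb or more (vertical axes, %, on different scales) against protein-coding genes per Mb (horizontal axes), 1 point per chromosome, for T0 (left) and T30 (right). The T0 share reaches 17.5% on chromosome 19 and 21.95% on chromosome 22 and is 0.893% on chromosome 2, and the T30 share lies between 23.9% and 48.2%.

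On a scale of 5 Mb windows, short loops lay in 136 of 619 windows in T0 and 410 in T30. Both libraries shared 133 windows, 97.8% of those of T0 and 32.4% of those of T30. The first 10 windows held 30.8% of the T0 loops and 18.02% of the T30 loops. The window of GSE1 on chromosome 16, from 85000001 to 90000000, had 12 of them in T0 and 80 in T30. The window of the luminal keratins KRT8 and KRT18 on chromosome 12, from 50000001 to 55000000, held 16 and 19. The window from 190000001 to 195000000 on chromosome 3 held 0 and 48, and that from 135000001 to 140000000 on chromosome 9, which holds EHMT1, held 1 and 51.

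Short loops lay among more genes than the genome at large. The number of protein-coding genes within 250 kb of a loop's centre had a median of 11 in T0 (quartiles 7 to 17) and 7 in T30 (4 to 12), against 2 (1 to 5) over all 605981 bins of 5 kb. It was above the upper quartile of all bins for 87.2% of T0 loops (83.3 to 90.5) and 65.3% of T30 loops (63.6 to 67.0), where 22.2% of bins are. At or under the lower quartile lay 1.39% and 5.70%, against 40.2% of bins. Loops of 50 to 100 kb had medians of 9 in T0 and 7 in T30, and those of 100 to 500 kb had 5 in both, so the medians at short and at longer spans lay farther apart in T0. Loops between different genes had medians of 16 and 14, and those inside a gene 10 and 6.

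Recurrence was asked in each direction. A loop was taken to recur when the ranges of its clusters overlapped those of a loop of the other list at both ends by at least 1 bp. Of the T0 loops 138 recurred, 38.3% (33.3 to 43.6), and of the T30 loops 163, 5.39% (4.61 to 6.26). The lists differ in length, so the shares have different ceilings. With identical bins, 66 loops recurred, 18.3% of T0 and 2.18% of T30, and with both bins within 10 kb 56.1% and 10.0%. Recurring loops had more contacts than the others, with medians of 30 against 24 in T0 and 22 against 16 in T30. With T0 loops split at the quartiles of contacts, from fewest to most, 25%, 28.8%, 41.4% and 60.2% recurred, and in T30 2.31%, 3.23%, 4.38% and 12.3%. The share also was larger at 45 kb (52.2% in T0 and 9.39% in T30) than at 20 kb (27.5% and 3.97%).

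Partners of recurring loops were mostly short as well. Of the 138 recurring T0 loops, 130 met a T30 loop of 20 to 50 kb, 26 met one of 50 to 100 kb, and 2 one of 100 to 500 kb. Of the 163 recurring T30 loops, 137 met a short T0 loop and 11 met one of 10 to 15 kb. By gene class, 42.1% of the T0 loops inside a gene recurred (32.0 to 52.7), as did 28.7% of those between genes (19.9 to 39.0) and 48.9% of those with no gene (33.7 to 64.2), with overlapping intervals. In T30 the classes ran from 4.31% with no gene to 7.31% with 1 gene. Of the T0 loops, 12 of 15 on chromosome 3, 8 of 10 on chromosome 7 and 8 of 12 on chromosome 9 recurred, against 2 of 13 on each of chromosomes 5 and 15. Chromosomes 12 (12.8%), 16 (12.04%) and 17 (8.97%) had the highest shares in T30.

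Loops listed with the same bins held fewer contacts in T30. Over the 66 pairs, the ratio of T30 to T0 contacts had a median of 0.613 (quartiles 0.520 to 0.732, range 0.353 to 1.33), and 60 were lower and 6 higher in T30. At least 1.5-fold lower were 44 of 66, and 0 were 1.5-fold higher, against 53.5% and 2.47% of the 608 pairs of identical bins at all spans. The 542 pairs of 50 kb or more had a median ratio of 0.667, so both span classes had a median below 1. These ratios are not scaled to depth, and a pair enters only where both lists hold it. NDUFAF6 to PLEKHF2 had 48 contacts in T0 and 59 in T30 (ratio 1.23, 0.826 to 1.84). Loops inside LLGL2, a polarity gene (28 and 31), and SHB, an adaptor protein gene (18 and 24), were also among the 6 that were higher, and the interval of each of these ratios included 1. The loop at VWA5B2 (60 and 24, ratio 0.400, 0.238 to 0.652) and the one on chromosome 12 from 53700001 (73 and 27, ratio 0.370, 0.229 to 0.582) were lower. PAK2 had 51 and 18, and the loop between KRT8 and KRT18 had 30 and 17.

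**Figure D5:**
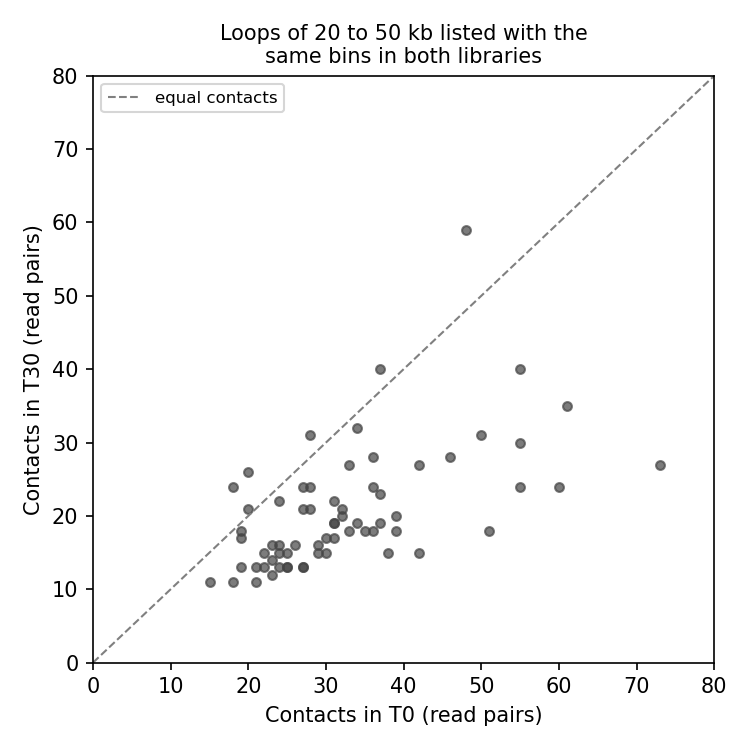
Contacts in T30 (vertical axis, read pairs) against contacts in T0 (horizontal axis, read pairs) for the 66 loops of 20 to 50 kb listed with the same bins in both libraries, 1 point per loop, with the line of equal contacts dashed. Of the 66 points 60 lie below the line and 6 above it, the farthest up being NDUFAF6 to PLEKHF2 at 48 and 59.

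Most short loops did not chain together. The 360 T0 loops used 679 bins and the 3024 T30 loops 5248. A bin had 2 or more short partners in 5.89% of T0 bins and 12.3% of T30 bins. Loops that shared no bin with another short loop were 78.1% in T0 and 58.4% in T30, and the largest linked group was of 3 loops in T0 and 14 in T30. The C16orf74 bin had 3 partners in each library, the most in T0. In T30 the most was 5, at the bin from 48020001 on chromosome 12, which holds no protein-coding gene and had 0 partners in T0. In T30, 28 bins had 4 or more partners. Among those with 4, bins with the most contacts lay at CUEDC1, MYOF, GSE1, PTPRJ, NDUFAF6, FAM20C, a secretory kinase gene, and PIEZO1, a mechanosensitive channel gene. Bins with no protein-coding gene, from 101435001 on chromosome 8 and from 43440001 on chromosome 17, were also among them. A bin was shared with a longer loop of the same list by 47.2% of short T0 loops and 47.8% of short T30 loops. Of the T0 bins 48.5% were used by some T30 loop of any span, and of the T30 bins 15.2% by some T0 loop.

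Genes of 8 lists were looked up at the ends of short loops. The lists and their members were chosen with earlier results of these data known, so their counts are descriptions and not independent of the data. The background is 2.29% of protein-coding genes with an end of a short loop in T0 and 11.2% in T30. Of 32 progestin target genes, 1 had an end in T0 and 14 had one in T30, with 0 in both. The T0 gene was TAT, a liver enzyme gene that responds to steroids (22 contacts). FKBP5, which encodes a co-chaperone of steroid receptors, had 3 short loops in T30, of 47, 35 and 22 contacts, all from the bin that holds its upper end at 35725001 on chromosome 6, and 0 in T0. T0 loops overlapped the first and second of these by cluster range. GREB1, a hormone-responsive growth regulator, had 2 with 27 and 25 contacts, EGFR, a growth factor receptor, 2 with 14 and 19, and ZBTB16, a zinc finger repressor, 1 with 32. PER1, a clock gene, had 1 with 16 contacts, S100P, a calcium-binding protein gene, 1 with 20, and TSC22D3, a glucocorticoid-induced leucine zipper gene, 1 with 10. The median difference over the list was 0 loops, as it was over all genes.

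Luminal identity genes were the list with the most members at short T0 loops. Of 22, 7 had an end in T0 and 8 in T30, with 5 in both, and 3 had more in T30, 3 fewer and 16 equal numbers. KRT8, a luminal keratin, had 2 in T0 (35 contacts inside the gene, 30 to KRT18) and 1 in T30 (17 to KRT18). KRT19, also a luminal keratin, had 46 contacts in T0 and 23 in T30, from neighbouring bins to the same partner. XBP1, a stress-response transcription factor, had 23 and 27. ELF3, an epithelial transcription factor, had 28 in T0 and CDH1, the epithelial cadherin, 23 in T0 from the CDH3 gene, with no short T30 loop at either. FOXA1 had 1 in T30 with 11 contacts. These genes are short, with a median of 18.1 kb, and 1 held a loop inside in each library.

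Among 23 estrogen response genes, 2 had an end in T0 and 9 in T30. RARA had 2 in each library, from CDC6 in T0 (38 and 28 contacts) and inside the gene in T30 (15 and 17), and ABHD2, a lipase gene, had 0 and 3. Genes of actin, adhesion and their signalling had 1 of 20 in T0 and 11 in T30, of which 10 held a loop inside. They are long, with a median of 176.8 kb against 24.2 kb for all genes, and the part of length in the count was not tested. PXN, the focal adhesion adaptor paxillin, had 1 loop inside in T0 (34 contacts) and 2 in T30 (23 and 25) that meet the same bin. BAIAP2, an actin regulator at membranes, had 0 and 4 inside (96 contacts), TNS3, a tensin, 0 and 4 (70), and SHROOM3, a shaper of apical actin, 0 and 4 (52). Coregulator and chromatin genes had 1 of 20 in T0, GSE1, and 4 in T30. They are long as well, with a median of 182.3 kb, and the part of length was not tested here either. Basal and mesenchymal genes had 1 of 20, ACTA2, and 4, and housekeeping genes 2 of 16, ACTB and B2M, and 4. Genes of other tissues had 0 of 20 in each library.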

How the data were processed

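HiChIP loops were measured in 2 of the 23 samples of the series, 1 per condition; the other samples were not analysed here. The lists hold merged near contacts at a q-value of 0.05, as the deposited lists' values and the labels show. Bowtie and the builds GRCh38 and hg38 appear, without versions, in the submitters' processing notes. Other software was not given in the sources used here, nor was pooling of samples. Each contact value is a deposited count of read pairs joining 2 bins of 5 kb, per the file headers. A loop's p-value and its q-value are the authors', per the file headers. A fraction that the authors give per cluster entered no result.

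Genes came from a RefSeq table of GRCh38.p14 (19970 protein-coding genes on chromosomes 1 to 22 and X), and a gene was at a loop end when it overlapped the bin. RefSeq promoters cover a part of the genes, so motif shares are over the matched promoters alone, and position within a gene was read from either end of the gene. All bin pairs of the same span were enumerated as background. Intervals on shares are exact Clopper-Pearson intervals at 95%, and those on ratios are exact conditional intervals; read pairs need not be independent molecules. No test was run. The members, the 8 gene lists, and the settings were chosen with earlier results of these data known. Named were the 12 genes with most loops inside and with the largest difference in each direction, the 10 strongest loops, recurring loops and bins of each library, and list members with a loop; the text gives a part of these. Some items of these are not reported here. The promoters, the miRNAs and the leading pairs of genes were chosen after their values were seen. Classes were checked on 600 placed loops, either inside a long gene or with no gene at either end, and all 600 were recovered. Loops between genes or with 1 gene were not placed. For recurrence, all 179 exact copies were found and 0 of 421 loops moved far away were matched. Near matches were not checked. The tools were Python 3.11.15 with pandas 2.3.3, numpy 2.4.6, matplotlib 3.10.9 and scipy 1.17.1.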

Additional observations from a re-analysis of the deposited data

How the results depend on the processing

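Of 119 values recomputed under another setting, 79 stayed within the counting interval of the reported value (counts within 1.5 times) and 40 moved. A change of direction was not defined for these counts, shares, ratios and medians. Some settings left a list as it was, so its number of short loops could not move. The contact floor left T0 so, and equal p left T30 so. At q below 0.01 there were 186 short loops in T0 and 1654 in T30, 4.34% and 30.1% of the lists, with 20.4% of T0 loops inside a gene, median contacts of 28 and 19, and 4 luminal and 1 estrogen response genes at T0 ends. At equal p T0 held 186 (4.36%), the ratio was 16.3, 20.4% lay inside a gene, the T0 median was 28, and 50.0% of T0 and 3.97% of T30 loops recurred. With at least 10 contacts the shares were 5.79% and 35.6%. At the equal contact floor the T30 share was 25.5%, the ratio 5.60, the density share 67.9%, the median 19 and recurrence 7.09%. Spans of 25 to 45 kb gave 4.37%, 23.9% and a ratio of 7.42, and lists of equal length 30.4% and 5.98. Inside a gene lay 47.2% and 51.8% with genes widened by 10 kb, 19.4% and 32.7% with bin midpoints, and 41.3% of T30 loops with all gene types. A window of 100 kb gave a density share of 63.0% in T30. Recurrence was 18.3% and 2.18% with identical bins, 43.9% of T0 within 5 kb, 56.1% and 10.0% within 10 kb, and 4.53% of T30 with short partners alone. The cause of these moves was not tested. Leaving out chromosome 17 or the GSE1 window, chosen after the data were seen, moved none of the counts, shares inside a gene or recurrence shares beyond its interval (ratio 9.33 and 8.46). Of 64 differences in loops inside a named gene, 19 moved and 0 changed sign; at q below 0.01 KCNMA1 had 7, VAV2 3, MAD1L1 3 and EHMT1 2. Contacts are not scaled to depth, and a loop under a list's threshold is unseen. No paired analysis was possible because each condition is 1 library.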
